A study of Mus musculus with 24 samples.

Results

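The 40 genes described here drive DNA replication and cell division. They were taken from a list of 23 replication genes and 17 mitosis genes, and their probe sets were found by the gene symbol of the array's annotation. Of the 40 genes, 36 had at least 1 probe set of their own, among 8252 such genes on the array, with 48 of its 12488 probe sets. A signal above 51.5, the 40th percentile of all values, on at least 3 arrays was required for testing. It left 42 member probe sets of 34 genes, 23 probe sets of 19 replication genes and 19 probe sets of 15 mitosis genes, among 9033 tested. Tyms, Pole, Ccnb1 and Bub1b had no probe set annotated to that gene alone. Mcm6 and Prim2 were on the array but did not pass the filter, and neither did 1 further probe set each of Rrm1 and E2f1 and 2 of Bub1.

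Total RNA of whole tissue was measured on 24 single-colour Affymetrix arrays. Germ-free mice are raised without any microbe, and conventional mice carry a microbiota. The 8 groups of 3 arrays were germ-free and conventional corpus, germ-free and conventional jejunum, germ-free and conventional descending colon, and germ-free and conventional rectum. The corpus was the stomach apart from the antrum, the jejunum the small intestine without its 2 ends, and the descending colon and rectum were neighbouring stretches at the end of the gut. The labels used here state neither strain, age nor sex. They also leave unstated which arrays came from one animal, so the tests reflect only how much the arrays of a group vary.

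Proliferation in the gut lining takes place in the crypts of the intestine and colon and in a narrow zone of the gastric gland, where stem cells and their early progeny divide before they differentiate. Before a cell copies its genome, D and E cyclins release E2F transcription factors, which switch on the genes of the replication machinery. The MCM helicase is loaded at origins by Cdc6 and opens the double helix together with Cdc45. Polymerases then extend primers made by the primase subunits while Pcna holds them on the template, and Fen1 and Lig1 join the lagging strand. Mitosis genes peak later, when cyclins A and B with Cdk1 and the kinases Plk1, Aurka and Aurkb carry the cell through division. In whole tissue, fewer dividing cells and less RNA per dividing cell cannot be told apart.

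The arrays had been scaled to a common mean, and their median signals lay between 68.6 and 103.5. In every germ-free group replicate 3 had the highest median and the smallest share of probe sets at or under the floor of 21.2. Its medians were 102.5 in the corpus, 88.4 in the jejunum, 103.5 in the descending colon and 89.9 in the rectum. The other germ-free medians ran from 68.6 to 93.8, and the conventional ones from 74.2 to 85.9. The part of this in the differences between states was not tested. Region markers opposed the labels of 3 libraries. The library labelled germ-free corpus 3 had the gastric proton pump gene Atp4a at 176 and the hindgut gene Hoxb13 at 1399. For the library labelled conventional jejunum 3, Apoa4, an apolipoprotein of the small intestine, was at 13.8 and Hoxb13 at 1626. For conventional rectum 1 the signal of Hoxb13 was 41.7 and that of Apoa4 2766. Markers also stood apart in libraries outside these 3. Germ-free descending colon 1 had Hoxb13 at 112, against 1082 to 1728 in the other descending colon libraries. The small intestine gene Fabp2 was at 4005 there, against 111 to 1182, and the hindgut gene Car1 at 6818, the highest of this region. Germ-free corpus 2 had Car1 at 1432.5, against 9.2 to 15.7 in the corpus libraries other than germ-free corpus 3, and Atp4a at 14479. Germ-free corpus 3 and germ-free descending colon 3 had the highest correlation of all 276 pairs of libraries, 0.9896, against 0.9864 for the next pair, and the median absolute difference of their member probe sets was 0.0821 on the log2 scale, against 0.172 for the next closest pair. All 24 libraries were kept under their labels, and each result was also computed without the 3 libraries with opposed markers.

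The members were lowest in the corpus and highest in the jejunum. The mean log2 signal over all 42 probe sets was 6.54 ± 0.15 in the corpus, 7.19 ± 0.22 in the jejunum, 6.86 ± 0.18 in the descending colon and 6.998 ± 0.258 in the rectum (SD, n = 6 libraries in each). Of the 42 probe sets, 36 had their lowest regional mean in the corpus and 29 their highest in the jejunum. Among the 19 mitosis probe sets, 18 were lowest in the corpus, 13 were highest in the jejunum and 6 were highest in the rectum. Among the 23 replication probe sets, 18 were lowest in the corpus and 16 were highest in the jejunum.

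The highest of all libraries was conventional jejunum 1, with a mean over the members of 7.53, and the lowest was germ-free corpus 1, with 6.38. Germ-free corpus 3 had a mitosis mean of 7.26, against 6.46 to 6.68 in the other corpus libraries. Conventional rectum 1 had the highest replication mean of the 6 rectum libraries, 7.08, and is one of the libraries with opposed markers. Conventional jejunum 3, another of these, had 6.76, inside the jejunum range of 6.72 to 7.20.

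**Figure D1:**
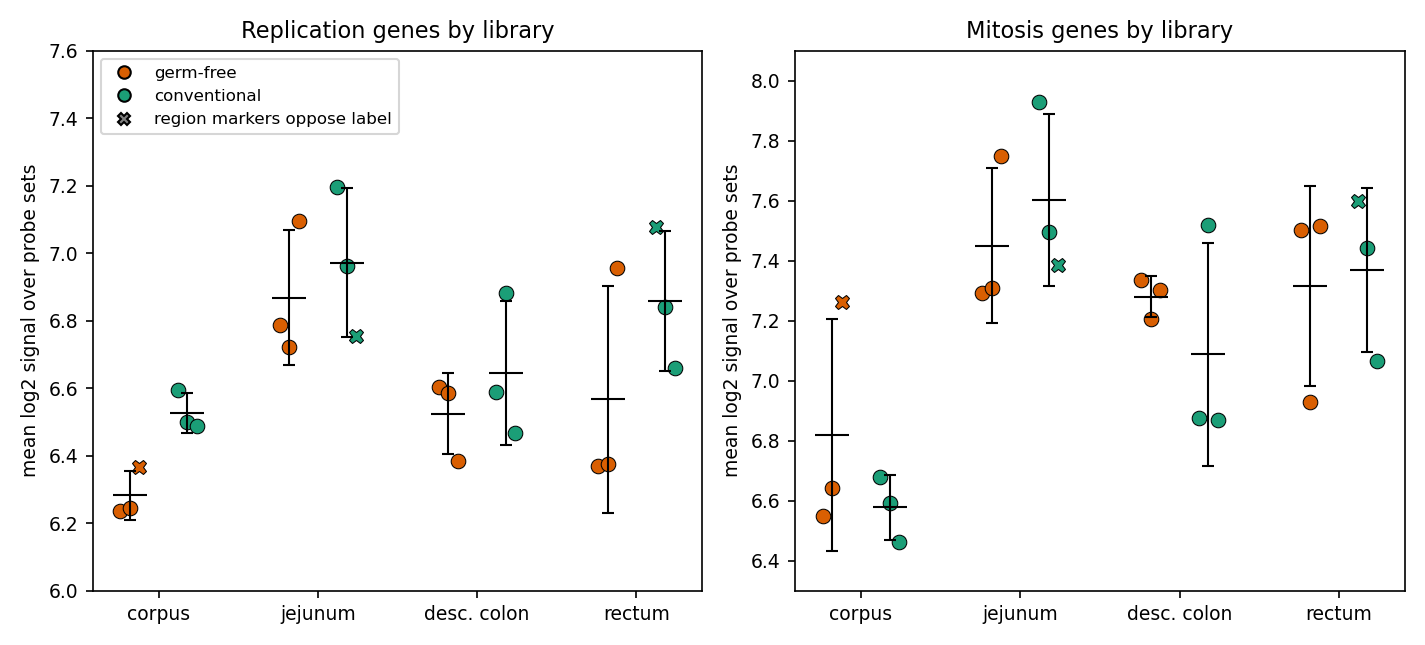
Mean log2 signal (y axis) of the 23 replication probe sets (left) and the 19 mitosis probe sets (right) in each library, by region (x axis), with germ-free libraries left of conventional ones. Points are libraries, bars are the mean ± SD of 3, and crosses are the 3 libraries whose region markers opposed their labels. In both panels the jejunum libraries lie above the corpus libraries in both states, and the cross in the corpus column of the right panel is germ-free corpus 3 at 7.26.

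The map of single libraries shows the same order gene by gene, with the corpus columns low for most rows. Suffixes such as _f_at, _s_at, _r_at and _i_at mark probe sets designed under relaxed rules, whose gene assignment is less certain.

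**Figure D2:**
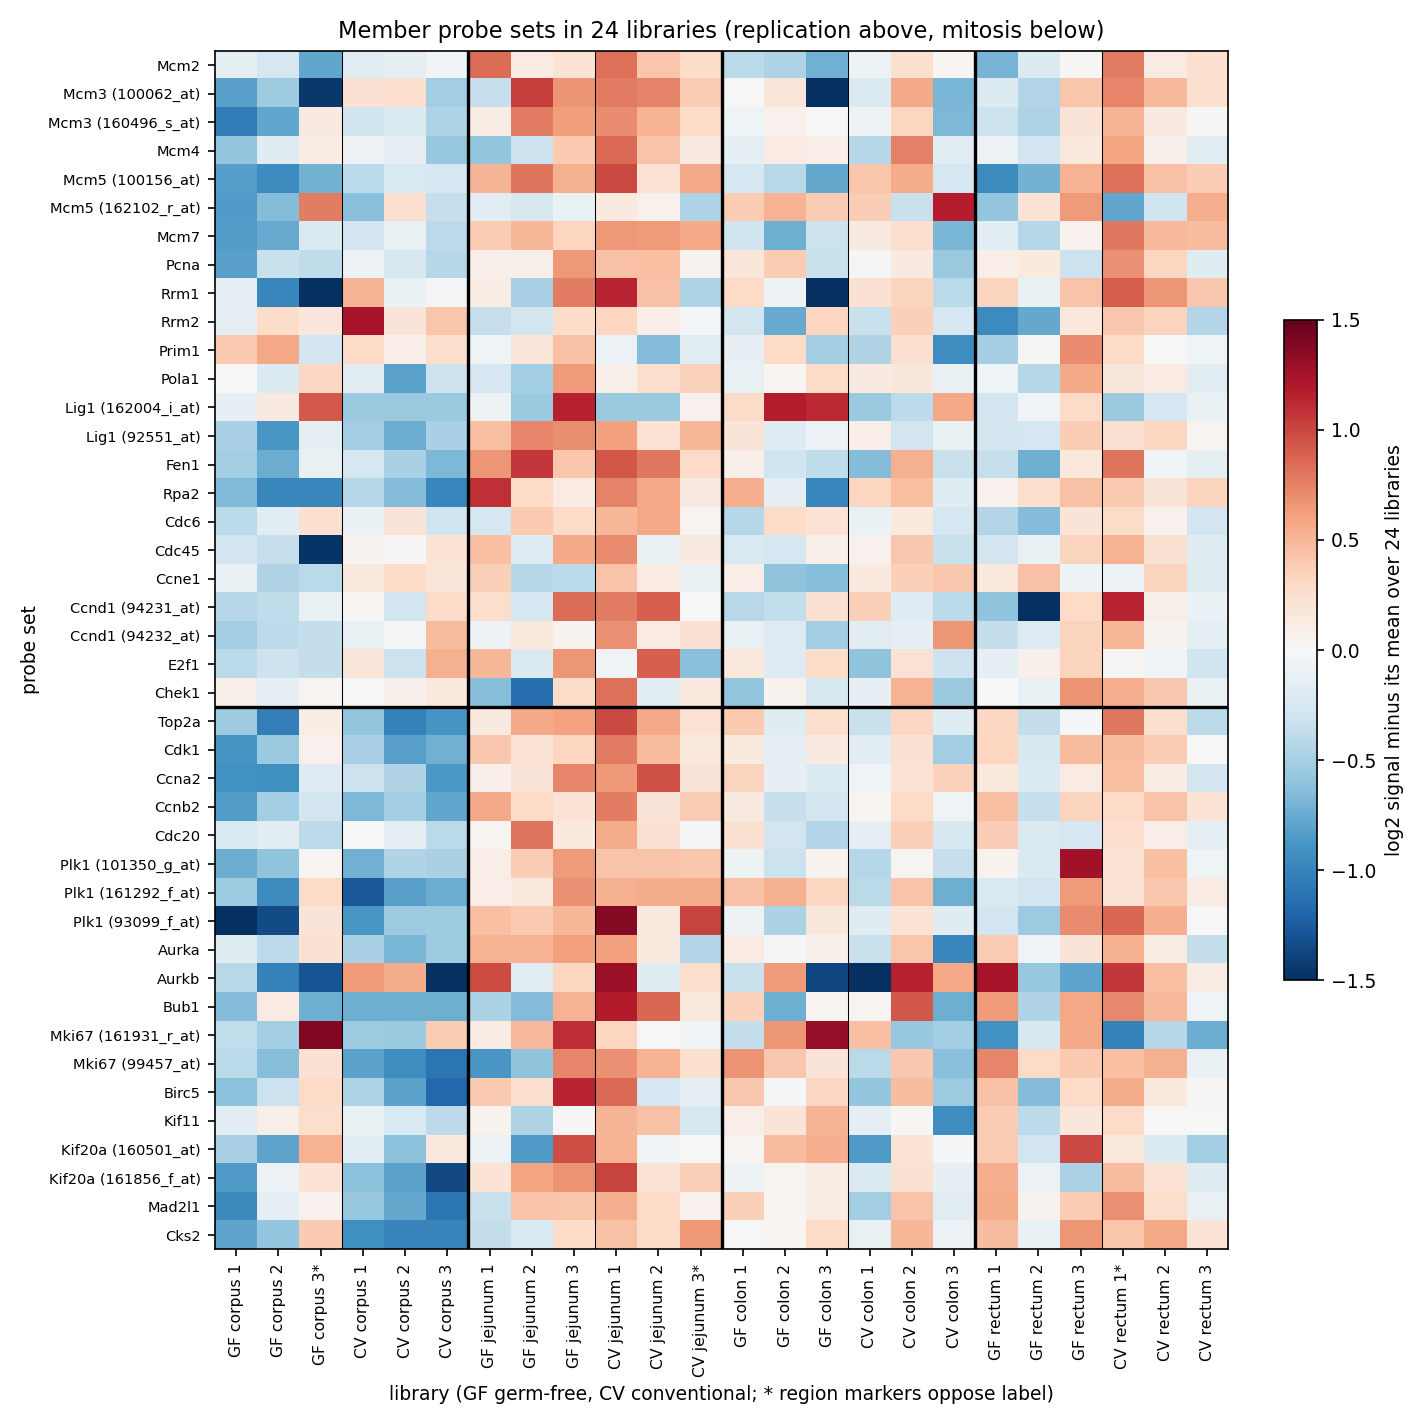
Log2 signal of each of the 42 member probe sets (rows) in each of the 24 libraries (columns), as the difference from that probe set's mean over all libraries (colour, from blue for lower to red for higher). Thick lines separate the regions and the replication from the mitosis genes, thin lines separate germ-free (left) from conventional libraries, and asterisks mark the 3 libraries whose region markers opposed their labels.

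Mki67, whose protein marks cells in cycle, had 2 probe sets. Over each region's 6 libraries, the lowest, median and highest signals of 99457_at were 92.8, 120.2 and 231 in the corpus, 108, 259 and 327.5 in the jejunum, 128, 244 and 315 in the descending colon and 184, 265 and 329 in the rectum. The highest corpus value was that of germ-free corpus 3, and without it every corpus library lay at 149 or below. The other probe set, 161931_r_at, was at 57.6, 62.6 and 223 in the corpus and at 81.9, 99 and 183 in the jejunum, with 57.1, 91.2 and 212 in the descending colon and 42, 56.9 and 126 in the rectum. All 4 of its ranges overlapped.

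Pcna, the sliding clamp of the polymerases, had signals of 246, 337 and 406 in the corpus (lowest, median and highest of 6), 448, 520.3 and 675 in the jejunum, 294.5, 449 and 562 in the descending colon and 346, 469.8 and 694 in the rectum. Top2a, which untangles sister chromatids, was at 63.2, 77.8 and 140.2 in the corpus, 142, 193 and 258 in the jejunum, 103, 134 and 169.5 in the descending colon and 99.1, 142 and 224 in the rectum. For both genes every jejunum library lay above every corpus library, and the ranges of the other neighbouring regions overlapped. Cdk1, the mitotic kinase, was at 146, 173.5 and 281.5 in the corpus, 301.5, 348 and 465 in the jejunum, 188, 269.9 and 317 in the descending colon and 229, 344 and 374 in the rectum. Its order of medians ran jejunum, rectum, descending colon and corpus, and the jejunum and rectum ranges overlapped. For Ccnd1, the cyclin of early G1, all 4 ranges overlapped, and the probe set 94232_at was at 251, 309.6 and 502 in the corpus, 345, 399 and 583 in the jejunum, 252, 326 and 575 in the descending colon and 284, 353 and 511 in the rectum.

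Between jejunum and corpus, 24 of the 42 member probe sets, of 21 genes, were higher in the jejunum and none lower, at an adjusted p under 0.05 in limma, with the mean over both states taken in each region. Of all 9033 probe sets, 13.7% were higher and 19.2% lower. The median log2 difference of the members was 0.71, against -0.10 over all probe sets. For 12 of the member probe sets, all 6 jejunum libraries lay above all 6 corpus libraries, which was so for 2.35% of all probe sets. The same 24 probe sets were called without the 3 libraries with opposed markers, against a background of 16.8% higher. In germ-free mice alone 16 members were higher, against 8.57% of all probe sets, and in conventional mice alone 18, against 7.85%, with 12 in both.

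Of the replication genes, 8 of the 19 rose in the jejunum, by 9 of their 23 probe sets, with a median difference of 0.56 over the 23. The DNA ligase Lig1 (92551_at), which seals the nicks of the lagging strand, had signals of 149, 188 and 213 in the jejunum (lowest, median and highest of 6) and 69.6, 90.2 and 115 in the corpus. All jejunum libraries lay above all corpus libraries, with a log2 difference of 1.08 ± 0.15 (adjusted p = 2.9e-05). Of the MCM helicase subunits, Mcm2, Mcm3, Mcm5 and Mcm7 rose and Mcm4 did not pass. Mcm7 was at 225, 261 and 282.5 in the jejunum and 100.5, 142 and 167 in the corpus, a difference of 0.94 ± 0.16 (adjusted p = 0.000138). Mcm5 (100156_at) was at 372, 471 and 639.6 in the jejunum and 167, 219.8 and 275 in the corpus, a difference of 1.16 ± 0.21 (adjusted p = 0.000238). Both were again without overlap between the 2 regions. Mcm2 differed by 0.70 ± 0.18 (adjusted p = 0.00407) and the 2 probe sets of Mcm3 by 1.02 ± 0.31 and 0.95 ± 0.20 (adjusted p = 0.0147 and 0.00109), and Mcm4 had 0.39 ± 0.22 (adjusted p = 0.184).

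Among the other factors of the replication fork, Rpa2, a subunit of the protein that coats single-stranded DNA, was at 45.4, 57.1 and 89.3 in the jejunum and 8, 20.6 and 31 in the corpus. Its log2 difference was 1.28 ± 0.24 (adjusted p = 0.000362), and 3 of the 6 corpus libraries lay at the floor of 21.2, so that the size of the difference is uncertain. Over 25 alternatives it ran from 0.25 to 1.72, and the call was lost in 1 (adjusted p up to 0.0869). Fen1, the nuclease that trims lagging-strand flaps, differed by 1.16 ± 0.23 (adjusted p = 0.000617) and Pcna by 0.67 ± 0.18 (adjusted p = 0.00575). Genes of nucleotide supply and of priming did not pass. Rrm1 and Rrm2, the subunits of ribonucleotide reductase, had differences of 0.63 ± 0.37 and -0.35 ± 0.25 (adjusted p = 0.213 and 0.299), and Prim1 and Pola1, of the primase and polymerase alpha complex, had -0.28 ± 0.24 and 0.29 ± 0.21 (adjusted p = 0.414 and 0.31). Chek1, the kinase of the replication checkpoint, had -0.15 ± 0.25 (adjusted p = 0.691). The origin factors Cdc6 and Cdc45 and the G1 regulators Ccne1, Ccnd1 and E2f1 did not pass either, with log2 differences between 0.05 for Ccne1 and 0.57 for Ccnd1 (94231_at). The second probe sets of Lig1 (162004_i_at) and Mcm5 (162102_r_at), had differences of 0.04 and 0.11 and were not called.

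Of the mitosis genes, 13 of the 15 rose in the jejunum, by 15 of their 19 probe sets, and the median difference over the 19 was 0.89. Ccnb2, a B cyclin that activates Cdk1, was at 794, 878 and 1188 in the jejunum and 388.5, 464 and 575 in the corpus, a log2 difference of 1.00 ± 0.15 (adjusted p = 4.33e-05). Ccna2, the cyclin of S and G2, was at 343, 439.7 and 632 in the jejunum and 172, 208 and 283.5 in the corpus, a difference of 1.08 ± 0.18 (adjusted p = 0.00014). Cdk1 differed by 0.96 ± 0.18 (adjusted p = 0.000295) and Top2a by 1.17 ± 0.22 (adjusted p = 0.000436). None of these 4 overlapped between jejunum and corpus.

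The difference was 1.42 ± 0.28 for Plk1 (93099_f_at), a kinase of mitotic entry, and its other probe sets gave 1.10 ± 0.22 and 0.89 ± 0.20 (adjusted p = 0.000623, 0.000709 and 0.002). Kif20a (161856_f_at), a kinesin of cytokinesis, differed by 1.09 ± 0.22 (adjusted p = 0.000623). Of the spindle checkpoint, Mad2l1 differed by 0.82 ± 0.21 (adjusted p = 0.00504) and Bub1 by 0.84 ± 0.32 (adjusted p = 0.0452). For Bub1, 4 of 6 corpus libraries lay at the floor. The Bub1 call did not hold in 9 of the 12 fits that left out 1 corpus or jejunum library (all but conventional jejunum 3, germ-free corpus 2 and germ-free jejunum 2; adjusted p up to 0.12), and its difference was 0.22 in germ-free mice alone (adjusted p = 0.772), against 1.47 in conventional mice alone (adjusted p = 0.0258). Cks2, which binds Cdk1, Birc5, a subunit of the chromosomal passenger complex, the kinase Aurka, Mki67 (99457_at) and Cdc20, an activator of the anaphase-promoting complex, had differences between 0.52 for Cdc20 and 0.89 for Birc5. In germ-free mice alone Mki67 and Cks2 differed by 0.02 and 0.22 (adjusted p = 0.968 and 0.602), against 1.42 for each in conventional mice alone (adjusted p = 0.00589 and 0.000835). The germ-free values included germ-free corpus 3, a library with opposed markers. It had Mki67 at 231, against 149 and 127 in germ-free corpus 1 and 2, and Cks2 at 433, against 191 and 220.5. This contrast by itself was not tested for a difference between the states. Whether the effect of state differed between regions was tested in limma, with an adjusted p of 0.904 for both genes. Both lay under an unadjusted p of 0.05 in limma. The call was lost when any one of 5 libraries was left out for Mki67 (conventional corpus 3, conventional jejunum 1, germ-free corpus 1 and 2 and germ-free jejunum 3; adjusted p up to 0.0729), of 2 for Aurka (conventional jejunum 1 and germ-free corpus 2; up to 0.0771) and of 3 for Cdc20 (conventional corpus 3, conventional jejunum 1 and germ-free jejunum 2; up to 0.0756). Aurkb, with 0.93 ± 0.50, and Kif11, a motor that separates the spindle poles, with 0.14 ± 0.19, did not pass (adjusted p = 0.169 and 0.632), nor did the second probe sets of Mki67 and Kif20a.

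**Figure D3:**
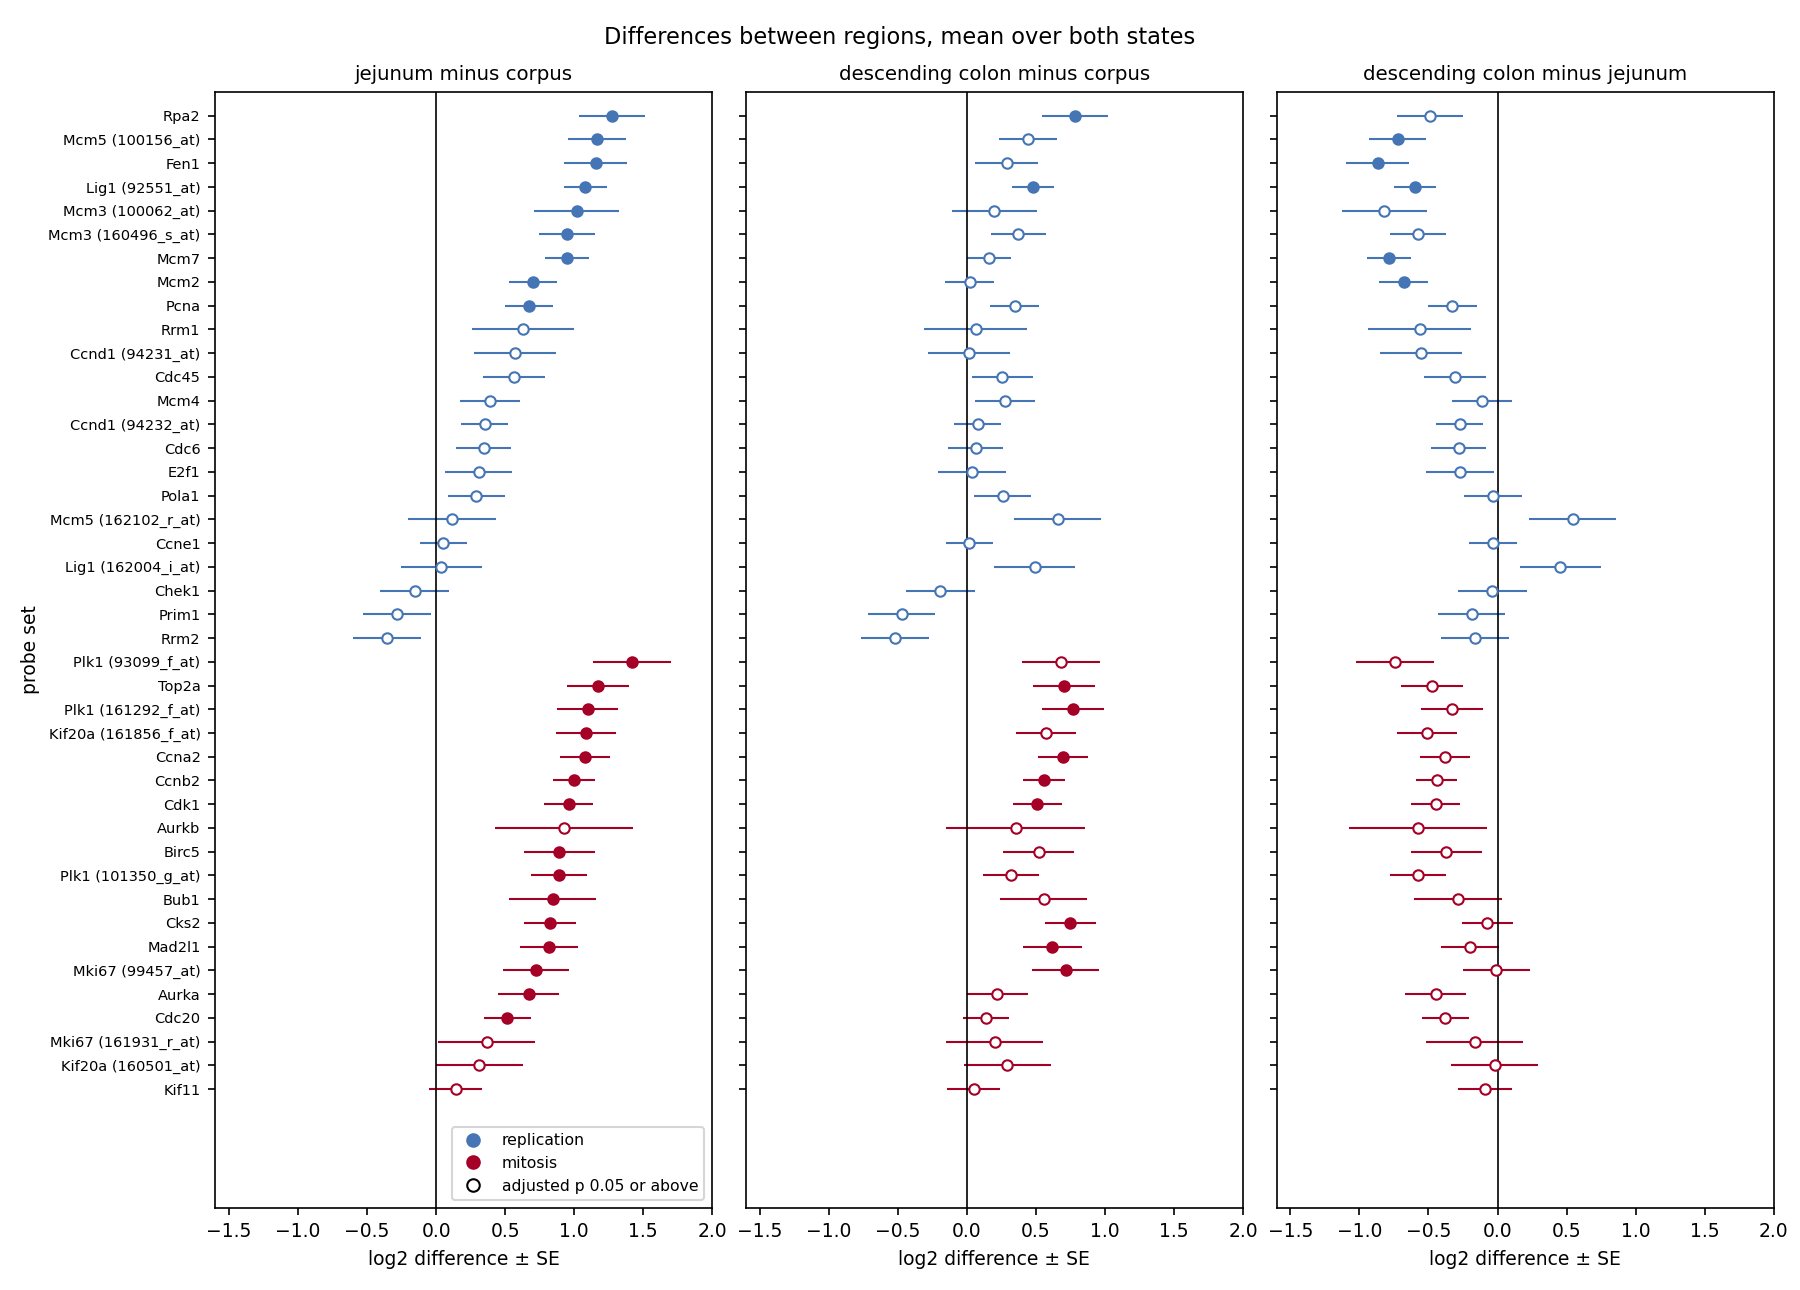
Log2 difference ± SE (x axis) of each member probe set (rows, replication in blue and mitosis in red, ordered within each set by the left panel) for jejunum minus corpus, descending colon minus corpus and descending colon minus jejunum, each as the mean over both states. Filled points passed an adjusted p of 0.05. In the left panel 24 filled points lie right of 0, in the middle panel 10, and in the right panel 5 filled points, all blue, lie left of 0.

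Cell cycle genes outside the 40 were counted from separate lists. Of 36 tested probe sets of other replication and S phase genes, 13 were higher in the jejunum and 1 lower. Those of lowest p were the origin licensing factor Cdt1 (0.92 ± 0.16 and 1.17 ± 0.24 for its 2 probe sets), the clamp loader subunit Rfc5 (0.82 ± 0.15) and the polymerase delta subunit Pold2 (1.52 ± 0.31), with adjusted p-values of 0.000192, 0.000707, 0.000307 and 0.000714. Of 35 probe sets of other mitosis genes, 14 were higher and none lower, led by the kinesin Kif22 (1.31 ± 0.19, adjusted p = 3.68e-05), the securin Pttg1 (0.72 ± 0.14, adjusted p = 0.000424), the microtubule regulator Stmn1 (0.74 ± 0.17, adjusted p = 0.00199) and the kinesin Kif23 (0.97 ± 0.26, adjusted p = 0.00586). The medians of these lists were 0.37 and 0.45, below those of the members.

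Regulators of G1 were mixed, with 5 of 29 probe sets higher and 4 lower in the jejunum. Ccng2, an atypical cyclin of resting cells, was at 1136 ± 155 in the jejunum and 347 ± 244 in the corpus (SD, n = 6 each; log2 difference 1.93 ± 0.19, adjusted p = 3.3e-06). The inhibitor gene Cdkn2b was higher (1.33 ± 0.29, adjusted p = 0.0013), and Cdkn1c, another inhibitor, and Ccng1, a p53 target, were lower (-1.35 ± 0.26 and -1.0 ± 0.17, adjusted p = 0.000394 and 0.000138). Of 11 probe sets of crypt and stem cell genes, 3 were lower and none higher: Cd44 (-1.03 ± 0.24), Bmi1 (-0.78 ± 0.20) and the ephrin receptor gene Ephb3 (-1.63 ± 0.41), with adjusted p-values of 0.00255, 0.00423 and 0.0045. The list was mixed, with 6 estimates below 0, 5 above and a median of -0.29. Lgr5, also on the list, did not pass the filter. It was at 5.6 to 19.7 in the corpus, under the floor, and at 22.4 to 58.6 in the jejunum except for 12.1 in conventional jejunum 3.

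Markers of tissue make-up moved between these regions as well, and their part in the members' difference was not tested. Of 10 probe sets of pan-epithelial genes, 8 were higher in the jejunum, with a median difference of 1.09, and the mean log2 signal of the list ran from 10.4 to 11.1 in the 6 jejunum libraries and from 8.21 to 10.65 in the 6 corpus libraries. All 8 smooth muscle probe sets were lower, with a median of -1.35, and the list ranged from 8.90 to 10.2 in the jejunum and from 10.5 to 11.4 in the corpus. Of 14 probe sets of squamous epithelium genes, which mark the forestomach, 13 were lower, with list means of 4.95 to 5.57 in the jejunum and 5.60 to 10.6 in the corpus. The lowest squamous value of the corpus and its highest pan-epithelial value were both those of germ-free corpus 3. Lymphocyte and germinal centre genes had 2 of 16 probe sets higher and a median of 0.55.

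Promoters are shown for the members that moved together between jejunum and corpus, the 2 replication and 2 mitosis genes of lowest p that have a single promoter in the table. Each is the 300 bases from 250 before to 50 after the gene's start in RefSeq, build GRCm38.p6, printed 5′ to 3′ on the gene's strand. Capitals mark matches to the E2F site (searched as TTCCCGC, as TTCGCGC, as TTGCCGC and as TTGGCGC), the cell cycle homology region (TTTGAA) and the CCAAT box, each searched on both strands. A reverse E2F match that ends in CCAA overlaps a CCAAT box when a T follows.
Mcm5, chr8:75109259-75109558, plus strand: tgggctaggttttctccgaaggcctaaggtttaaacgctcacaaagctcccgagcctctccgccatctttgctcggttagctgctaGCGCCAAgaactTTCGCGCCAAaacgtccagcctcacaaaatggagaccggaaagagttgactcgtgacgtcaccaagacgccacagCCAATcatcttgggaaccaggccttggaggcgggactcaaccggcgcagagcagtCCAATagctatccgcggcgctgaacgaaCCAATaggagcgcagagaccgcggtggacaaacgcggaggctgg
Rpa2, chr4:132768110-132768409, plus strand: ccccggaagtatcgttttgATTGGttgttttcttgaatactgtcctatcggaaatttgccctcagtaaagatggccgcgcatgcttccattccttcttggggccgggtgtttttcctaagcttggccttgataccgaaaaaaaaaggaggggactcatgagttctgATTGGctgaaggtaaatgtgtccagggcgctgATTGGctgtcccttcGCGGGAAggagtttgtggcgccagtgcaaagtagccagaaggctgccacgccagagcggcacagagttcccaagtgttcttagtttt
Ccnb2, chr9:70421505-70421804, minus strand: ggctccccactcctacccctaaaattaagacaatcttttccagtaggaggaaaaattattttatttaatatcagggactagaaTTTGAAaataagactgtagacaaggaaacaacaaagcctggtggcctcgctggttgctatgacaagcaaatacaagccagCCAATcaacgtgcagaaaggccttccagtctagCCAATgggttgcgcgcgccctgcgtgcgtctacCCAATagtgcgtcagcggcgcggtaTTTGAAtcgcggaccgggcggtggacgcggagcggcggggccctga
Cdk1, chr10:69352863-69353162, minus strand: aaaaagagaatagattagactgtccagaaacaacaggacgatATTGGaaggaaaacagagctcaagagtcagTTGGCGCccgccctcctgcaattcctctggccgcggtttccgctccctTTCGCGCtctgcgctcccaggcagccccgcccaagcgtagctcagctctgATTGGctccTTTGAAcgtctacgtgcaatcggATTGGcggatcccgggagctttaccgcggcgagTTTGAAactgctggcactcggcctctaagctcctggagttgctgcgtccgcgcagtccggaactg

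The replication and the mitosis promoters differed in which letters they held, and these shares are given as a description. E2F factors bind the first motif, the DREAM complex binds the cell cycle homology region, through which many mitosis genes are kept off outside G2 and M, and the factor NF-Y binds the CCAAT box. In the 23 promoters of 19 replication members, the E2F letters were found in 15 (65.2%), and in 3 of 14 promoters of mitosis members (21.4%), against 9.57% of all 32851 promoters in the table. The cell cycle homology region was found in 3 replication promoters (13.0%) and 9 mitosis promoters (64.3%), against 17.9% of all. A CCAAT box was found in 13 replication promoters (56.5%) and 12 mitosis promoters (85.7%), against 37.4% of all. Mean GC content was 57.8% in the replication promoters, 59.1% in the mitosis promoters and 53.8% in all, and the E2F letters are rich in G and C.

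The printed promoters show the pattern for single genes. Mcm5 has 3 E2F matches, at bases -164 to -143 from the start, with 3 CCAAT boxes and no cell cycle homology region, and Rpa2 has 1 E2F match, at -37 to -31, and 3 CCAAT boxes. Ccnb2 has 2 cell cycle homology regions and 3 CCAAT boxes and no E2F match, and Cdk1 has matches to all 3 motifs. No match here says only that these letters are not in the window. In all, 33 members had 37 promoters in the table. Mcm4, Prim2, Pole, Ccnd1, Ccna2, Aurkb and Kif20a had none.

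**Figure D4:**
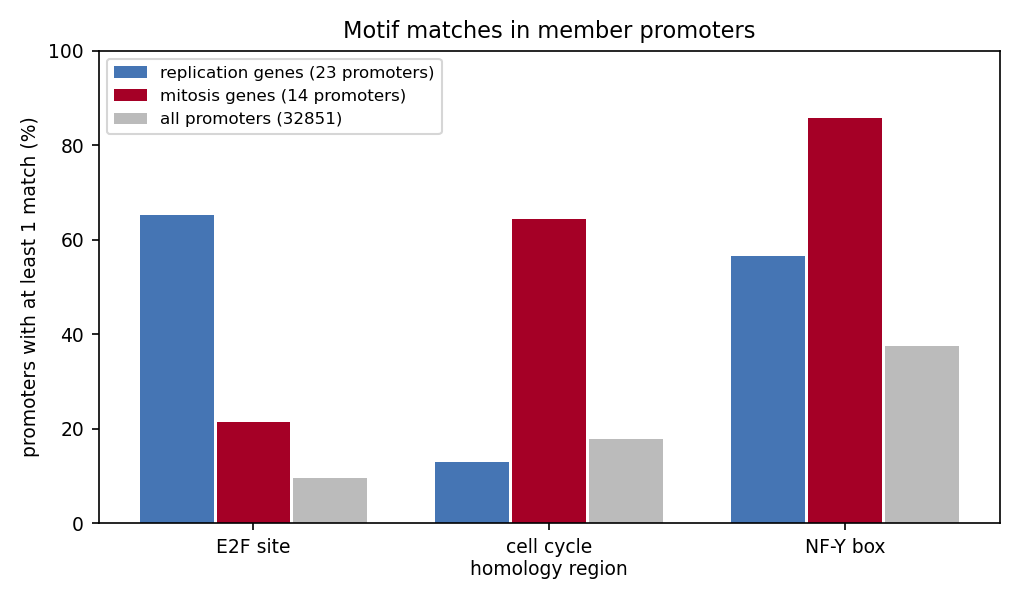
Share of promoters with at least 1 match (y axis, percent) for the E2F site, the cell cycle homology region and the CCAAT or NF-Y box (x axis), in the 23 promoters of replication members, the 14 of mitosis members and all 32851 in the table. E2F matches reach 65.2% in replication members and cell cycle homology regions 64.3% in mitosis members.

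Between descending colon and jejunum, 5 of the 42 member probe sets were lower in the descending colon and none higher, against backgrounds of 5.34% lower and 9.1% higher. All 5 were replication genes. Mcm7 was at 108, 145 and 212 in the descending colon and 225, 261 and 282.5 in the jejunum, without overlap, a log2 difference of -0.79 ± 0.16 (adjusted p = 0.00439). Lig1 (92551_at) was at 105, 120.0 and 146.5 in the descending colon and 149, 188 and 213 in the jejunum, also without overlap, a difference of -0.60 ± 0.15 (adjusted p = 0.0149). Mcm2 fell to 79.5, 111 and 154 in the descending colon, against 143, 166 and 234 in the jejunum (-0.68 ± 0.18, adjusted p = 0.015), and here the ranges met. Fen1 differed by -0.87 ± 0.23 (adjusted p = 0.0173) and Mcm5 (100156_at) by -0.72 ± 0.21 (adjusted p = 0.0251).

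None of the 19 mitosis probe sets was called, although all 19 estimates lay below 0 and 7 had an unadjusted p under 0.05 in limma. Their median was -0.38, against -0.31 for the replication probe sets and 0.10 for all probe sets, and whether the 2 sets of genes differ was not tested. The lowest p among them was that of Ccnb2 (-0.44 ± 0.15, adjusted p = 0.053). Plk1 (101350_g_at) ranged from 177 to 246 over the descending colon libraries and from 254 to 371 over those of the jejunum, the only mitosis probe set without overlap, which was so for 0.565% of all (-0.57 ± 0.20, adjusted p = 0.0638). There were 12 lower members without the 3 libraries with opposed markers, 6 replication and 6 mitosis probe sets, with the 5 named here among them, and the background was 9.54% lower. The added mitosis genes were Cdk1 (-0.53, adjusted p = 0.022), Ccna2 (-0.48, adjusted p = 0.0317), Ccnb2, Top2a, Plk1 (93099_f_at) and Aurka. Without conventional jejunum 1, the library with the highest member level, 1 member was called. The Mcm5 call was also lost without conventional descending colon 3, germ-free descending colon 3 or germ-free jejunum 2. In germ-free mice alone 3 of 42 were lower, against 4.26% of all. In conventional mice alone none was called in limma, nor any of all 9033, and at an unadjusted p under 0.05 there were 10 lower members, against 4.62% of all. That fit included conventional jejunum 3, 1 of the 3 libraries with opposed markers. Without these 3 libraries 1 member was lower in conventional mice alone, against 5.06% of all, and the member median went from -0.41 to -0.58. In germ-free mice alone 5 were then lower, against 6.96% of all.

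Other replication genes were lower in the descending colon by 6 of 36 probe sets and higher by 1. They included Cdt1 (-0.66 ± 0.16, adjusted p = 0.0112), Rfc5 (-0.62 ± 0.15, adjusted p = 0.0119) and Uhrf1, which directs maintenance methylation (-1.34 ± 0.37, adjusted p = 0.0197), whereas Orc4, an origin recognition subunit, was higher (0.71 ± 0.20, adjusted p = 0.023). Of 35 other mitosis probe sets 1 was lower, that of Racgap1, a regulator of cytokinesis (-0.52 ± 0.17, adjusted p = 0.0497). Smooth muscle genes were higher in the descending colon by 6 of 8 probe sets, with a median of 0.87 and list means of 10.2 to 11.0 in the descending colon and 8.90 to 10.2 in the jejunum. None of the 10 pan-epithelial probe sets was called (2 lower at an unadjusted p under 0.05), with a median of -0.11. Without the 3 libraries with opposed markers 2 of the 10 were called lower, with a median of -0.13. Of other replication probe sets 10 of 36 were then lower and 1 higher, and of other mitosis probe sets 4 of 35 were lower and 0 higher. The background was 9.54% lower. The part of these lists in the members' difference was not tested.

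Between descending colon and corpus, 10 member probe sets were higher in the descending colon and none lower, against backgrounds of 9.49% higher and 8.77% lower. Of these, 8 were mitosis probe sets and 2 were replication probe sets, Rpa2 (0.78 ± 0.24, adjusted p = 0.0264) and Lig1 (92551_at; 0.48 ± 0.15, adjusted p = 0.0339). Cks2 was at 305, 335 and 468 in the descending colon (lowest, median and highest of 6) and 166, 183 and 433 in the corpus, a difference of 0.75 ± 0.19 (adjusted p = 0.00749). Its highest corpus value was that of germ-free corpus 3, and the other 5 corpus libraries lay below every descending colon library. Ccna2 was at 282, 345 and 413 in the descending colon and 172, 208 and 283.5 in the corpus (0.70 ± 0.18, adjusted p = 0.0103). Ccnb2 was at 547, 692 and 846 in the descending colon and 388.5, 464 and 575 in the corpus (0.56 ± 0.15, adjusted p = 0.0118). Plk1 (161292_f_at), Top2a, Mki67 (99457_at), Mad2l1 and Cdk1 had differences between 0.51 for Cdk1 and 0.77 for Plk1.

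The median difference was 0.56 over the 19 mitosis probe sets and 0.20 over the 23 replication probe sets, against 0.01 over all. Of other mitosis genes 3 of 35 probe sets were higher, those of Kif22 (0.80 ± 0.19, adjusted p = 0.00562), Stmn1 (0.65 ± 0.17, adjusted p = 0.0102) and the cytokinesis regulator Ect2 (0.75 ± 0.25, adjusted p = 0.0377), and of other replication genes none of 36 was called (3 higher and 1 lower at an unadjusted p under 0.05). Without the 3 libraries with opposed markers, 8 of the 35 other mitosis probe sets were higher and 3 lower at an adjusted p under 0.05 in limma. Of the 36 other replication probe sets, 4 were then higher and 0 lower, against 15.2% higher and 14.1% lower over all. The count of 10 members depended on single libraries. It was 14 without the 3 libraries with opposed markers, all 10 included, against a background of 15.2% higher. It was 3 to 14 when each library was left out in turn, lowest without germ-free corpus 2 and highest without germ-free corpus 3. It was 8 without conventional descending colon 3, 7 without germ-free descending colon 3, and 4 to 6 without any one of the 3 conventional corpus libraries, conventional descending colon 1 or 2, germ-free descending colon 1 or 2, or germ-free corpus 1. In germ-free mice alone no member and none of all 9033 was called in limma, and at an unadjusted p under 0.05 there were 4 higher members of 42, against 7.71% of all. In conventional mice alone 2 members of 42 were higher, against 6.12% of all, a share below the background. The germ-free count included germ-free corpus 3, 1 of the 3 libraries with opposed markers. Without these 3 libraries, 7 members were higher in germ-free mice alone, against 9.59% of all. In conventional mice alone there were then 5, against 9.53% of all. Pan-epithelial genes were higher in the descending colon by 8 of 10 probe sets, with a median of 1.05, and lymphocyte genes by 5 of 16, with a median of 0.77, and their part in this difference was not tested.

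Rectum and descending colon, the adjoining stretches, did not differ in any of the 42 member probe sets at an adjusted p under 0.05 in limma, nor in any of all 9033 (0%). At an unadjusted p under 0.05 there were 2 members, against 2.24% of all probe sets, Mcm7 (0.48 ± 0.16) and Plk1 (101350_g_at; 0.46 ± 0.20), both higher in the rectum. Next by p were Rrm1 (0.75 ± 0.37) and Lig1 (162004_i_at; -0.53 ± 0.29).

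No member differed between germ-free and conventional mice at an adjusted p under 0.05 in limma, in any region or in the mean over the 4 regions. The share of all probe sets called was 0% in the corpus, 0.465% in the jejunum, 0.0111% in the descending colon, 0.0111% in the rectum and 1.68% in the mean. At an unadjusted p under 0.05 there were 6 members in the corpus, 5 in the jejunum, 6 in the descending colon, 4 in the rectum and 11 of 42 in the mean. The same count over all probe sets was 9.04%, 13.1%, 8.11%, 3.49% and 18.1%. Leaving out the 3 libraries with opposed markers again gave no call in these 5 comparisons. With only 3 libraries a group, groups without overlap are common over the whole array. All 3 germ-free libraries lay above all 3 conventional ones for 4 members in the corpus, 1 in the jejunum, 1 in the descending colon and none in the rectum, against 7.79%, 6.9%, 8.16% and 6.68% of all probe sets. They lay below for 6, 2, 3 and 2 members, against 5.32%, 8.47%, 5.88% and 4.42% of all.

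Estimates of the replication members lay mostly below 0. In the mean over the 4 regions, 17 of 23 replication probe sets were below 0, with a median of -0.22, against 44.1% and a median of 0.03 over all 9033. Of these 23, 8 were lower and 1 higher at an unadjusted p under 0.05, against 7.33% lower and 10.7% higher over all. The list of other replication and S phase genes had 20 of 36 probe sets below 0, with a median of -0.05. The mitosis probe sets had 6 of 19 below 0 and a median of 0.09. By region the replication median was -0.25 in the corpus, -0.11 in the jejunum, -0.10 in the descending colon and -0.25 in the rectum. The mitosis median was 0.31 in the corpus, -0.15 in the jejunum, 0.20 in the descending colon and -0.09 in the rectum. When the 3 libraries with opposed markers were left out, the replication median was -0.40 in the corpus, -0.23 in the jejunum, -0.10 in the descending colon and -0.09 in the rectum, so that the corpus and jejunum estimates lay further from 0 and the rectum estimate nearer. The mitosis median was then 0.05, -0.23, 0.20 and 0.04 in the same order of regions.

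**Figure D5:**
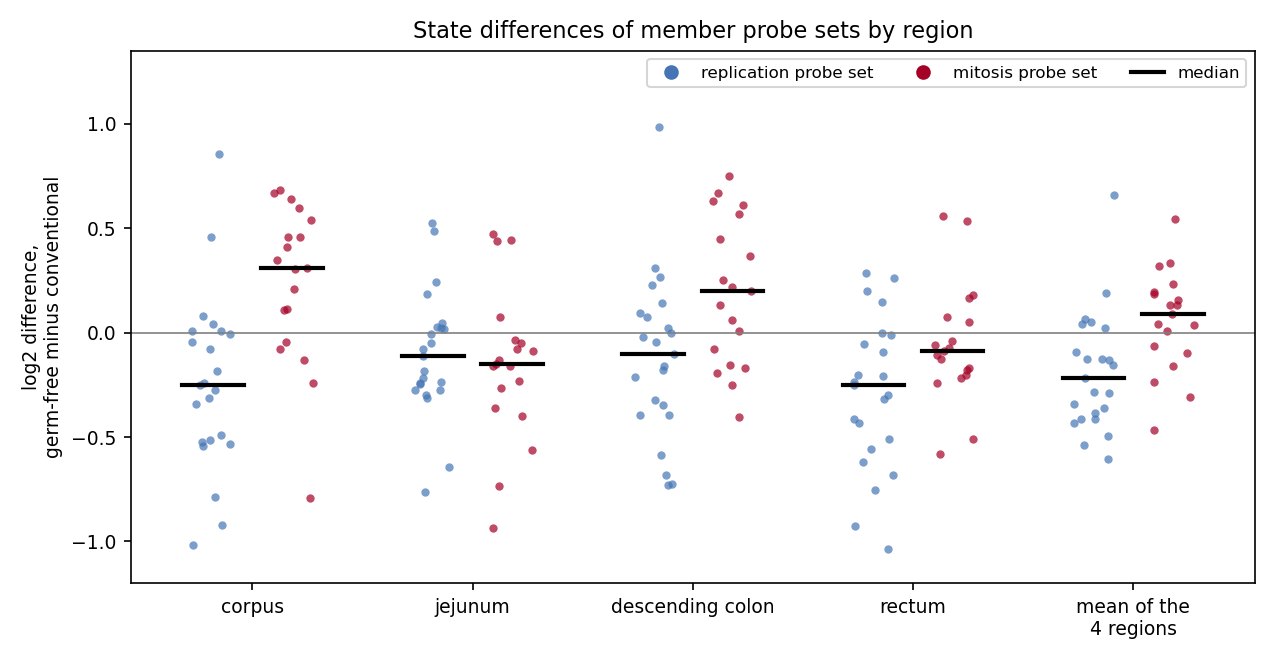
Log2 difference, germ-free minus conventional (y axis), of each replication (blue) and mitosis (red) probe set in each region and in the mean of the 4 regions (x axis), with the median of each set as a black line. None of the points passed an adjusted p of 0.05. The replication medians lie below 0 in all 4 regions, between -0.25 and -0.10, and the mitosis medians lie on both sides of it.

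Mcm7, Mcm5 (100156_at) and Mcm2, subunits of the MCM helicase, had the lowest p-values of the mean over regions. The other MCM probe sets had higher p-values, with -0.50 ± 0.22 and -0.13 ± 0.14 for Mcm3, -0.22 ± 0.15 for Mcm4 and 0.05 ± 0.22 for the second probe set of Mcm5 (adjusted p = 0.236, 0.665, 0.482 and 0.934). Mcm7 had signals of 161.5, 134 and 188 in germ-free rectum, against 310.5, 252 and 249 in conventional rectum, and the 2 groups did not overlap. In the descending colon it was at 147, 108 and 144 in germ-free mice, against 197, 212 and 112 in conventional mice, and the groups overlapped. Jejunum values were 234.5, 255 and 225 in germ-free mice, against 282.5, 280.2 and 267 in conventional mice, without overlap. Corpus values were 100.5, 106 and 155 in germ-free mice, against 148, 167 and 137 in conventional mice, and overlapped. The mean difference over regions was -0.41 ± 0.11 (adjusted p = 0.0689), and in the rectum it was -0.75 ± 0.23 (adjusted p = 0.982). Without the 3 libraries the mean difference was -0.44 (adjusted p = 0.0731).

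Mcm5 (100156_at) was at 182, 167 and 197 in germ-free corpus, against 243, 275 and 270.1 in conventional corpus, and at 267.5, 241 and 190.0 in germ-free descending colon, against 431, 472 and 271 in conventional descending colon. In neither region did the groups overlap. In the rectum germ-free libraries had 167, 197 and 461, against 569, 436 and 419 in conventional ones, and germ-free rectum 3 lay among the conventional values. In the jejunum the groups overlapped, with 459, 564 and 465 in germ-free mice, against 639.6, 372 and 476 in conventional mice. The mean difference was -0.54 ± 0.15 (adjusted p = 0.0704), and without the 3 libraries it was -0.52 (adjusted p = 0.136).

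Mcm2 was at 99.2, 94.7 and 79.5 in germ-free descending colon, against 124, 154 and 133 in conventional descending colon, and at 80.5, 113 and 132 in germ-free rectum, against 224, 143 and 154 in conventional rectum. Both pairs of groups were without overlap. The mean difference was -0.41 ± 0.12 (adjusted p = 0.09) and became -0.34 (adjusted p = 0.179) without the 3 libraries. Lig1 (162004_i_at) went the other way, with 0.66 ± 0.21 (adjusted p = 0.106), but 7 of the 12 conventional libraries and 1 of the 12 germ-free ones lay at the floor, and the brighter probe set of the gene, 92551_at, had 0.02 ± 0.11 (adjusted p = 0.941).

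Which member calls arose in this mean depended on single libraries. Leaving out conventional descending colon 3 gave 2 calls, Mcm7 (adjusted p = 0.0141) and Mcm5 (adjusted p = 0.0376). Leaving out germ-free corpus 3 gave 1, Mcm7 (adjusted p = 0.0358), and leaving out germ-free rectum 3 gave 1, Mcm5 (adjusted p = 0.00637). All of these were lower in germ-free mice. Equal array medians and quantile normalization each also brought Mcm7 past the threshold (adjusted p = 0.0472 and 0.0412). Over all alternatives the adjusted p ran from 0.0141 to 0.197 for Mcm7 and from 0.00637 to 0.233 for Mcm5.

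In the corpus the lowest p among the members was that of Cdc45, at 79.9, 76.4 and 35 in germ-free mice, against 101, 98.4 and 111.5 in conventional mice (-0.79 ± 0.31, adjusted p = 0.496). Cks2 was at 191, 220.5 and 433 in germ-free corpus, against 175, 167 and 166 in conventional corpus (0.64 ± 0.26, adjusted p = 0.519). The groups did not overlap for either gene, and in both the extreme value was that of germ-free corpus 3. Without the 3 libraries the difference was -0.40 for Cdc45 and 0.28 for Cks2. Ccnd1 (94232_at) was at 251, 275 and 282 in germ-free corpus, against 337, 358 and 502 in conventional corpus (-0.55 ± 0.24, adjusted p = 0.535), again without overlap, and Kif20a (161856_f_at) differed by 0.68 ± 0.31 (adjusted p = 0.535). Markers of other tissues differed between the same libraries, with medians of -1.87 for squamous epithelium genes, -1.72 for gastric gland genes and 1.68 for hindgut genes in germ-free corpus relative to conventional corpus, none past the adjusted threshold in limma (1, 0 and 2 at an unadjusted p under 0.05). These medians rested on germ-free corpus 3, with a mean log2 signal of the squamous genes of 5.60, against 10.3 and 10.6 in the other germ-free corpus libraries and 10.3 to 10.5 in conventional corpus. Without the 3 libraries the medians were 0.03, 0.29 and 0.18.

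In the jejunum the lowest p was that of Chek1 at 37.6, 26.9 and 70.9 in germ-free mice, against 104, 52.3 and 64.9 in conventional mice (-0.77 ± 0.35, adjusted p = 0.354). Mki67 (99457_at) was at 108, 130.0 and 327.5 in germ-free jejunum, against 318, 285 and 233 in conventional jejunum (-0.73 ± 0.34, adjusted p = 0.355). Germ-free jejunum 3 was the highest of all 6, and without it the difference was -1.22 (adjusted p = 0.0323), the only member call that leaving out a library gave in a single region. Over all its alternatives the adjusted p ran from 0.0323 to 0.74. The second Mki67 probe set, 161931_r_at, went the other way, with means of 131 in germ-free jejunum and 91.2 in conventional jejunum. Its signals were 91.8, 119 and 183 in germ-free jejunum, against 106, 85.5 and 81.9 in conventional jejunum, and the groups overlapped. Germ-free jejunum 3 also had Atp4a at 874, against 111 to 186 in the other jejunum libraries. Cks2 was at 257.5, 283 and 399.8 in germ-free jejunum, against 449, 402 and 518 in conventional jejunum (-0.56 ± 0.26, adjusted p = 0.37), and Bub1 differed by -0.94 ± 0.45 (adjusted p = 0.376).

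Lymphocyte and germinal centre genes had mostly lower estimates in germ-free jejunum and descending colon but not in the rectum, and such cells can divide. Of 16 probe sets all estimates were below 0 in germ-free jejunum, with a median of -1.11, 10 lower at an unadjusted p under 0.05 and 1 past the adjusted threshold, Cd53, a leukocyte membrane protein (-2.52 ± 0.56, adjusted p = 0.0444). In the descending colon 15 of the 16 were below 0, with a median of -0.64, none past the adjusted threshold in limma and 4 lower at an unadjusted p under 0.05. In the corpus 10 of the 16 were below 0, with a median of -0.09, and in the rectum 7, with a median of 0.05. None of these passed an unadjusted p of 0.05 in limma. Without the 3 libraries with opposed markers the corpus median was -0.36 and the rectum median 0.18. The jejunum median was then -1.31, with all 16 estimates below 0 and 0 past the adjusted threshold in limma, so that the Cd53 call was lost. In the mean over regions all 16 were below 0, with a median of -0.48, 7 lower at an unadjusted p under 0.05 and 1 past the adjusted threshold, Laptm5, a lysosomal protein of leukocytes (-0.74, adjusted p = 0.0319). Their part in the members' values was not tested. No probe set of the other replication, other mitosis or G1 lists was called in any region or in the mean over regions, with 5, 5 and 7 at an unadjusted p under 0.05 in the mean and 0 to 5 in the single regions.

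In the descending colon the lowest p was that of Ccne1, the cyclin that starts S phase, at 166, 101.5 and 99.1 in germ-free mice, against 171, 198 and 204 in conventional mice (-0.68 ± 0.24, adjusted p = 0.602). The groups did not overlap. After it came Mcm5 (100156_at; -0.72 ± 0.29), Lig1 (162004_i_at; 0.98 ± 0.41) and Mcm2 (-0.59 ± 0.25), all at an adjusted p of 0.602. In the rectum Mcm7, Mcm5 (100156_at; -0.93 ± 0.29), Mcm2 (-0.68 ± 0.25) and Ccnd1 (94231_at; -1.04 ± 0.42) had the lowest p-values, all at an adjusted p of 0.982. Without the 3 libraries, of which conventional rectum 1 belongs to this region, the differences were -0.65 for Mcm7, -0.79 for Mcm5, -0.48 for Mcm2 and -0.65 for Ccnd1. Ccnd1 (94231_at) was at 75.5, 35.8 and 141 in germ-free rectum, against 254, 121 and 107 in conventional rectum, where conventional rectum 1 was the highest. Another library of this region stood apart by its markers. Germ-free rectum 1 had the stomach genes Atp4a at 1968 and Tff2 at 1902.5, against 135 to 205 and 3.3 to 194.5 in the other 5 rectum libraries. All 7 gastric gland probe sets had estimates above 0 in germ-free rectum relative to conventional rectum, with a median of 2.15, none past the adjusted threshold in limma and 3 at an unadjusted p under 0.05. Without germ-free rectum 1 the differences were -0.76 for Mcm7, -0.64 for Mcm5, -0.48 for Mcm2 and -1.07 for Ccnd1, each at an adjusted p of 0.893.

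The 5 genes followed in every region gave no call. Pcna differed by -0.25 ± 0.25 in the corpus, -0.05 ± 0.25 in the jejunum, 0.23 ± 0.25 in the descending colon and -0.30 ± 0.25 in the rectum. Top2a differed by 0.35 ± 0.32, -0.16 ± 0.32, 0.22 ± 0.32 and -0.24 ± 0.32 in the same order of regions, and Cdk1 by 0.21 ± 0.25, -0.16 ± 0.25, 0.20 ± 0.25 and -0.09 ± 0.25. Mki67 (99457_at) had estimates above 0 in the corpus (0.67 ± 0.34) and the descending colon (0.63 ± 0.34), below 0 in the jejunum and of 0.18 ± 0.34 in the rectum. Ccnd1 (94232_at) was below 0 in all 4 regions, with -0.40 ± 0.24 in the descending colon and -0.21 ± 0.24 in the rectum, and its mean over regions was -0.36 ± 0.12 (adjusted p = 0.128).

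Whether the effect of state differed between regions was tested with a moderated F test, which called 2 of all probe sets (0.0221%) and no member. Mki67 (99457_at) and Cks2 were the 2 members under an unadjusted threshold of 0.05, which 5.4% of all probe sets passed, each with an adjusted p of 0.904.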

How the data were processed

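The authors deposited 1 table of signal intensity for each of 24 single-colour Affymetrix arrays of total RNA, linear and already scaled, with no log. How the intensity was computed is not given in the sources used here. Leaving out the highest and lowest probe sets, so that 96% remained, each array had a mean of 200.101 to 200.138, and the array medians ran from 68.6 to 103.5.

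Groups came from the sample labels. Values were raised to a floor of 21.2 (the 25th percentile of all values) and put on the log2 scale without a pseudocount. Probe sets above 51.5 on at least 3 arrays were kept, and 66 control probe sets were left out, which left 9033. On each array 17.6% to 28.5% of probe sets lay at or under the floor. One mean per group was fitted with limma 3.58.1 in R 4.3.3 (eBayes with trend), with regional contrasts averaged over both states, and p-values were adjusted by Benjamini-Hochberg over all 9033. Gene names came from the platform annotation, in which 10855 probe sets have 1 gene, 396 several and 1237 none listed. Probe sets with several genes were not named, and probe sets of 1 gene were kept apart. The number of arrays limits the precision.

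The members and lists were chosen with earlier results of these data known. All members were counted, and those past the threshold (up to 6 each way by lowest p, or the 4 of lowest p where fewer than 4 passed) were given in full. Mki67, Pcna, Top2a, Cdk1 and Ccnd1 were followed in every region, and up to 4 called genes of each other list were named. Other members were named after their values were seen. The fit was tested on simulated data.

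Alternatives were quantile normalization, equal array medians, no filter, other floors, only the groups compared, replicate blocks (statmod 1.5.0), each library left out, the 3 libraries with opposed markers left out and, chosen after seeing the data, 5 libraries left out. The 5 were the 3 libraries with opposed markers, germ-free descending colon 1 and germ-free rectum 1. Promoters were searched with Python 3.11.15.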

Additional observations from a re-analysis of the deposited data

How the results depend on the processing

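Counts of called members kept within 1.5 times their main value, or at 0, except as follows. For germ-free against conventional in the mean over the 4 regions, 1 member was called after quantile normalization, 1 with equal array medians (Mcm7 in both) and 1 with the replicate number as a fixed block (the dimmer probe set of Lig1, adjusted p = 0.0316, range over its alternatives 0.0316 to 0.26). For descending colon against jejunum, against 5 in the main setting, 9 were called after quantile normalization, 11 with equal array medians, 8 with a random replicate block, 12 without the 3 libraries with opposed markers, 14 without 5 libraries (chosen after seeing the data), 3 in germ-free mice and 0 in conventional mice alone. For descending colon against corpus, against 10, there were 6 without a filter, 4 with only the compared groups in the fit, 0 in germ-free mice and 2 in conventional mice alone. The cause was not tested. After quantile normalization the mean replication level was 6.39 in germ-free descending colon (6.52 in the main setting) and 6.17 in germ-free corpus (6.28), and the mean mitosis level in germ-free descending colon was 7.20 (7.28).

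Leaving out each library in turn gave 0 to 1 called members for state in the jejunum, 0 to 2 in the mean over regions and 0 in the corpus, the descending colon, the rectum and the interaction. It gave 20 to 24 for jejunum against corpus, 1 to 7 for descending colon against jejunum, 3 to 14 for descending colon against corpus and 0 for rectum against descending colon. With the replicate number as a fixed block the counts were 24, 6 and 7 for the first 3 of these regional comparisons, and with a random block of state and number 25, 8 and 10. The numbers share no stated source: deviations of equally numbered arrays of 1 state from different regions correlated above 0.1 in 16 of 36 pairs of arrays, and those of different states in 2 of 12, with all 3 germ-free descending colon and rectum pairs above 0.1 (0.157 to 0.455) and none of the 3 conventional ones. The most extreme values were those of conventional jejunum with conventional rectum, 0.615, -0.497 and 0.666 for numbers 1, 2 and 3. These pairs include conventional rectum 1 and conventional jejunum 3, whose markers opposed their labels. Every germ-free pair numbered 3 lay above 0.1, from 0.16 to 0.455. Over all settings of single members, 1385 values kept direction and side of the threshold, 140 no longer passed, 8 newly passed and 0 changed sign. Signals near the floor limit the dim members.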

Other observations

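Tyms, the synthase of thymidylate for DNA synthesis, was measured only by probe sets shared with a pseudogene, Tyms-ps, so the 2 cannot be told apart and neither was counted among the members. The first of these had signals of 72.2, 109 and 195 in germ-free corpus, against 112, 101 and 74.8 in conventional corpus, and of 132, 151 and 142.5 in germ-free jejunum, against 173.5, 127 and 193 in conventional jejunum. In the descending colon it was at 185.5, 181 and 187 in germ-free mice, against 195, 226 and 120.4 in conventional mice, and in the rectum at 211, 179 and 210.4, against 172, 253 and 188. The highest corpus value was that of germ-free corpus 3, the library whose region markers opposed its label.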
